A study of Mus musculus with 10 samples.

Results

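CC chemokine ligands are small secreted proteins that guide leukocytes, and they carry a pair of adjacent cysteines near the amino end of the mature protein. The 10 genes described here are the listed CC ligand genes of the mouse, Ccl2, Ccl3, Ccl4, Ccl5, Ccl6, Ccl7, Ccl8, Ccl9, Ccl12 and Ccl22, each found as 1 row of a table of 39488 gene rows through its NCBI Gene identifier. They were measured by bulk RNA-seq in peritoneal macrophages of 8-week-old C57BL/6 mice, collected on the third day after thioglycollate was injected to draw macrophages into the peritoneal cavity. There were 5 control libraries, which the labels call untreated, and 5 ox-LDL libraries, from cells primed with LPS (100 ng/ml) and then exposed for 16 h to oxidized low-density lipoprotein (ox-LDL, 100 µg/ml), the lipid particle that macrophages of an atherosclerotic lesion take up. All 10 libraries came from wild-type mice without a transgene, and the 5 per group were described as biological replicates, without saying whether each was a separate mouse. By the labels LPS, a ligand of Toll-like receptor 4, was given to the treated cells alone, so its share of any difference and that of ox-LDL cannot be told apart. The sources are not uniform on this point, since the study's wording can also be read as LPS for both groups, in which case the differences below would be those of ox-LDL alone, and a protocol field repeats the ox-LDL exposure for all 10 libraries.

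Chemokines bind G-protein-coupled receptors on leukocytes, which then move up the gradient of the ligand. The monocyte chemoattractants Ccl2, Ccl7 and Ccl12 act through the receptor Ccr2, Ccl8 of the mouse through Ccr8, Ccl3, Ccl5, Ccl6 and Ccl9 through Ccr1 among others, and Ccl22 through Ccr4. Recruitment of monocytes by the Ccl2 and Ccr2 pair is among the best known steps in the growth of atherosclerotic lesions, and many of these genes are known targets of Toll-like receptor and interferon signalling in macrophages.

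The defining feature of the family lies in its coding exons. For 9 of the genes, 30 coding bases around the 2 adjacent cysteine codons are shown from the GENCODE transcripts on mm9 (NCBIM37), read 5′ to 3′ on the strand of the gene, with the cysteine codons in capitals. They are shown because this pair of codons is what places the genes in 1 family.
Ccl2 (chr11:81849996-81850025, plus strand): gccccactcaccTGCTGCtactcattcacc
Ccl7 (chr11:81860028-81860057, plus strand): aatgcatccacaTGCTGCtatgtcaagaaa
Ccl12 (chr11:81916124-81916153, plus strand): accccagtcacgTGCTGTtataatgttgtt
Ccl8 (chr11:81929546-81929575, plus strand): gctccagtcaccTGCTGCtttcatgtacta
Ccl4 (chr11:83476972-83477001, plus strand): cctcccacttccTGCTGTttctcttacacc
Ccl5 (chr11:83342732-83342761, minus strand): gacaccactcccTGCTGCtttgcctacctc
Ccl6 (chr11:83402876-83402905, minus strand): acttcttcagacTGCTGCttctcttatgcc
Ccl9 (chr11:83389416-83389445, minus strand): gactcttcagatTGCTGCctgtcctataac
Ccl22 (chr8:97270822-97270851, plus strand): gaagacagtatcTGCTGCcaggactacatc
The codon pair lay in exon 2 of 3 in 7 of these genes and in exon 3 of 4 in Ccl6 and Ccl9, whose first cysteine is codon 50 and codon 57, against codons 32 to 36 in the other genes shown. Over whole transcripts the longest identical run between 2 of the genes was 25 bases, between Ccl6 and Ccl9, followed by 23 bases between Ccl2 and Ccl7. How reads matching both genes of such a pair were assigned is not given in the sources used here.

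On mm9, 9 of the 10 genes lay on chromosome 11 in 2 groups. The first group held Ccl2 (NCBI Gene 20296, 81849073 to 81850955), Ccl7 (20306), Ccl12 (20293) and Ccl8 (20307, ending at 81930301), all on the plus strand. A gap of 1408978 bases separated it from Ccl5 (20304, from 83339280), Ccl9 (20308), Ccl6 (20305), Ccl3 (20302) and Ccl4 (20303, ending at 83478185), of which Ccl4 alone is on the plus strand. Ccl22 (20299) lay on chromosome 8, 97269490 to 97275599. Ccl2 overlapped the gene Gm17268 and Ccl6 the gene E230016K23Rik on the opposite strand, with no overlap between exons.

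Library totals ran from 19257131 to 20687289 estimated counts. Levels below are CPM after scaling by TMM, which corrects each library total for its composition, and the TMM factors ran from 0.593 (ox-LDL replicate 2) to 1.19. Some libraries stood apart. Deviations from the group mean followed gene length in opposite directions, with Spearman's rho over 11498 genes from -0.687 to -0.519 in ox-LDL replicate 2 and control replicates 1 and 4, and from 0.114 to 0.521 in the other 7 libraries. Control replicate 5 was the highest control for Ccl5 and Ccl8 and the lowest for Ccl2, Ccl6, Ccl7, Ccl9 and Ccl22. Where leaving out a library ended the call of 1 of the 10 genes or moved a fold change by over 1.5 times, the value without it is given. The summed level of 8 macrophage markers ranged from 19676 to 46844 CPM among controls and from 12493 to 47930 CPM after ox-LDL. Most of this sum was Lyz2, at 17493 to 44725 CPM among controls and 8713 to 44490 CPM after ox-LDL. In bulk samples a change in the number of cells of a type and a change in RNA per cell cannot be told apart.

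In ox-LDL macrophages 5 of the 10 CC ligand genes were higher than in control cells, Ccl5, Ccl22, Ccl7, Ccl2 and Ccl4 in the order of the change, at an adjusted p below 0.01 (edgeR quasi-likelihood test, adjusted over 12654 genes). None was lower with edgeR. With all 10 libraries none had a negative change at an unadjusted p below 0.05 with edgeR, DESeq2 or limma-voom. Of all genes tested 9.40% were higher and 5.35% lower by the same rule. 4 of the 10 also exceeded a log2 fold change of 2, which 4.78% of all genes tested did. In 6 of the 10, the same genes and Ccl12, the lowest ox-LDL value exceeded the highest control value, against 11.6% of all genes tested, and in 0 of the 10 all ox-LDL values lay under the controls (9.11% of all genes tested). Ccl3, Ccl6, Ccl8 and Ccl9 were tested and did not pass, and Ccl12 alone had too few counts to pass the filter on low values. The median log2 fold change was 0.10 over all genes tested. In 2-sided exact permutation tests on single genes, p = 0.00794 is the smallest that 5 libraries against 5 allow.

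**Figure D1:**
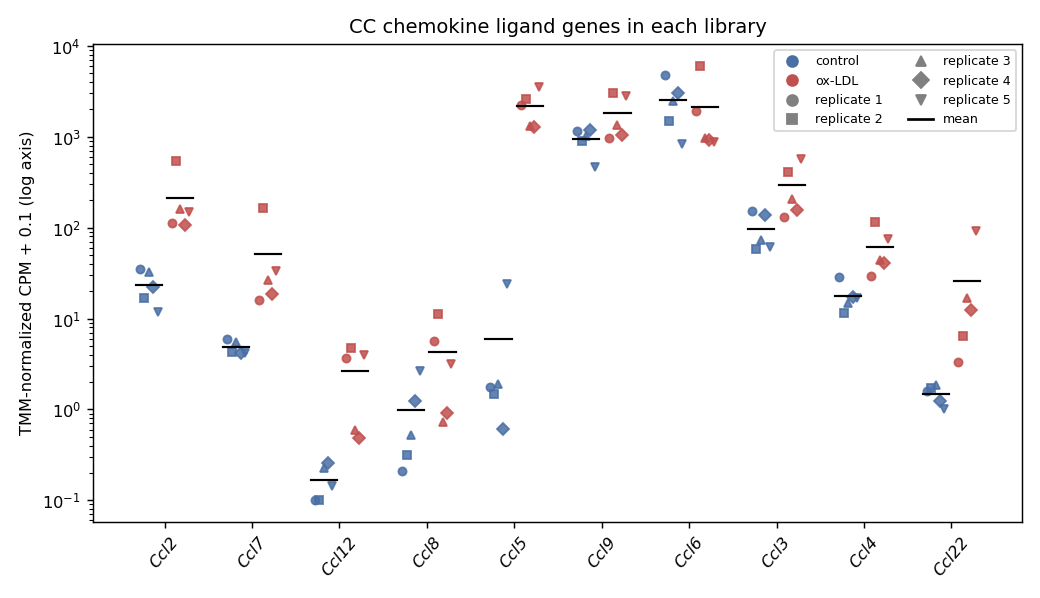
TMM-normalized CPM plus 0.1 (log axis) of the 10 CC ligand genes, blue for the 5 control and red for the 5 ox-LDL libraries, with a marker shape for each replicate number and a bar at the group mean. The red points of Ccl2, Ccl7, Ccl12, Ccl5, Ccl4 and Ccl22 all lie above the blue ones, and those of Ccl6, Ccl9, Ccl3 and Ccl8 overlap with them.

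Ccl5, which attracts T cells and monocytes, rose from the sixth to the first place of the family in mean level per length. In control replicates 1 to 5 it was at 1.66, 1.37, 1.80, 0.515 and 23.9 CPM, which are 30, 32, 42, 10 and 551 counts. In ox-LDL replicates 1 to 5 it was at 2237, 2617, 1311, 1276 and 3541 CPM. The groups did not overlap, and control replicate 5 stood above the other controls although at 0.676% of the level of ox-LDL replicate 5. Mean levels were 5.86 ± 10.1 CPM without and 2196 ± 951 CPM with the treatment (SD, 5 libraries each). This was a log2 fold change of 8.55 (SE 1.18, edgeR adjusted p = 0.000332, exact permutation p = 0.00794). Without control replicate 5 it was 10.67 (SE 0.66, edgeR adjusted p = 8.66e-06), so this 1 library sets the size of the change and not the call.

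Among the monocyte chemoattractants of the first group on chromosome 11, Ccl2 and Ccl7 rose, Ccl12, which the edgeR test left out, rose from close to 0 counts by the exact permutation test, and Ccl8 did not pass the test. Ccl2, the main ligand of Ccr2, was at 34.8, 16.9, 32.3, 21.9 and 11.6 CPM in control replicates 1 to 5. In ox-LDL replicates 1 to 5 it was at 113, 543, 159, 108 and 147 CPM. The groups were apart, and ox-LDL replicate 2 was far above the next library. The log2 fold change of Ccl2 was 3.18 (SE 0.51, edgeR adjusted p = 0.000860), from 23.5 ± 9.89 to 214 ± 185 CPM (SD, 5 libraries each). Without ox-LDL replicate 2 it was 2.44 (edgeR adjusted p = 0.000111).

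Ccl7, a second Ccr2 ligand, lay at 5.81, 4.19, 5.48, 4.12 and 4.04 CPM in control replicates 1 to 5, the narrowest control range of the 10 genes relative to its mean (SD 0.845 around 4.73 CPM). With ox-LDL, replicates 1 to 5 were at 16.0, 163, 26.7, 18.7 and 33.0 CPM. The lowest ox-LDL library was thus above the highest control, with replicate 2 again far above the others. Ccl7 had a log2 fold change of 3.44 (SE 0.63, edgeR adjusted p = 0.00187), and 2.28 without ox-LDL replicate 2 (edgeR adjusted p = 3.55e-05). Without a filter on low counts the adjusted p of Ccl7 was 0.0176.

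Ccl12, a mouse Ccr2 ligand that lies between Ccl7 and Ccl8, was close to the detection limit in control cells. It had 0, 0, 3, 3 and 1 counts in control replicates 1 to 5 and 82, 54, 10, 8 and 64 counts in ox-LDL replicates 1 to 5. The lowest ox-LDL value exceeded the highest control value (exact permutation p = 0.00794, 2-sided), and the ox-LDL libraries fell apart into replicates 1, 2 and 5, between 3.57 and 4.62 CPM, and replicates 3 and 4, at 0.488 and 0.383 CPM. Summed counts per effective library size were 36-fold higher in ox-LDL cells, with an exact 95% interval of 17.2 to 90.6 that covers counting error only. Under the 9 alternatives that kept Ccl12 in the test, the log2 fold change was 2.14 to 5.64 with an adjusted p of 0.000968 to 0.00627 (edgeR or limma). Apart from the alternative without a filter on low counts, Ccl12 entered these only through its ox-LDL values. They are therefore no separate support for its rise.

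Ccl8, which mouse cells sense through Ccr8, differed between libraries of the same group. In control replicates 1 to 5 it was at 0.111, 0.214, 0.428, 1.13 and 2.56 CPM, and in ox-LDL replicates 1 to 5 at 5.52, 11, 0.634, 0.813 and 3.05 CPM. Replicates 3 and 4 of the ox-LDL group fell within the range of the controls, and these libraries were also the lowest of their group for Ccl12. For Ccl8 the log2 fold change was 2.20 (SE 0.90, edgeR adjusted p = 0.0903). Leaving out control replicate 5 gave 3.12 (edgeR adjusted p = 0.0323), and leaving out ox-LDL replicate 2 gave 1.44 (edgeR adjusted p = 0.189).

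Of the neighbouring macrophage inflammatory protein genes Ccl3 and Ccl4, Ccl4 passed the test and Ccl3 did not. Ccl4 was at 28.9, 11.3, 14.9, 17.1 and 16.7 CPM in control replicates 1 to 5. The 5 ox-LDL libraries, in the order of their numbers, were at 29.5, 115, 44.3, 40.9 and 74.7 CPM. The groups did not overlap by the narrow gap between control replicate 1 and ox-LDL replicate 1. Ccl4 had a log2 fold change of 1.78 (SE 0.38, edgeR adjusted p = 0.00456). The call was lost on leaving out any 1 of control replicates 2 to 5 or ox-LDL replicate 5, with edgeR adjusted p from 0.0125 (without control replicate 5) to 0.0155 (without ox-LDL replicate 5).

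Ccl3 was at 151, 57.6, 73.0, 139 and 60.7 CPM in control replicates 1 to 5. Its values in ox-LDL replicates 1 to 5 were 132, 413, 205, 156 and 567 CPM. The lowest ox-LDL library lay below 2 of the controls, and the group means were 96.2 ± 45.0 and 295 ± 188 CPM (SD). The edgeR log2 fold change was 1.61 (SE 0.45) with an adjusted p of 0.0207 in that test and 0.00276 by DESeq2. Without ox-LDL replicate 5 it was 1.25 (edgeR adjusted p = 0.0615), and without control replicate 5, ox-LDL replicate 2 and ox-LDL replicate 5 together it was 0.59 (edgeR adjusted p = 0.176). Within a library the FPKM ratio of Ccl3 to Ccl4 was 3.42 to 8.15 in control and 3.24 to 6.55 in ox-LDL libraries, so the ranges overlapped.

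Ccl6 and Ccl9, rodent ligands of Ccr1 that myeloid cells make without stimulation, were the most abundant of the family in control cells, and neither passed the test. Ccl6 was at 4789, 1503, 2468, 3058 and 835 CPM in control replicates 1 to 5. In ox-LDL replicates 1 to 5 it was at 1918, 6058, 980, 919 and 885 CPM. The ox-LDL libraries other than replicate 2 lay in the lower part of the control range. The log2 fold change was -0.23 (SE 0.62, edgeR adjusted p = 0.821), -1.15 without ox-LDL replicate 2 (edgeR adjusted p = 0.0600) and 0.12 without control replicate 1 (edgeR adjusted p = 0.919), so its direction rests on single libraries.

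Ccl9 was at 1155, 900, 1025, 1183 and 469 CPM in control replicates 1 to 5. After ox-LDL, replicates 1 to 5 were at 967, 3036, 1334, 1041 and 2779 CPM. Leaving aside replicates 2 and 5, the ox-LDL libraries lay between 967 and 1334 CPM, against a highest control of 1183 CPM. Its log2 fold change was 0.95 (SE 0.40, edgeR adjusted p = 0.0971), and it was 0.01 (edgeR adjusted p = 0.969) without control replicate 5, ox-LDL replicate 2 and ox-LDL replicate 5 together. On the FPKM scale the ratio of Ccl6 to Ccl9 within a library was 3.67 to 9.10 in control and 0.702 to 4.37 in ox-LDL libraries.

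Ccl22, a ligand of Ccr4 known from activated dendritic cells and macrophages, rose from a low level. In control replicates 1 to 5 it was at 1.49, 1.63, 1.75, 1.13 and 0.912 CPM. In ox-LDL replicates 1 to 5 it was at 3.26, 6.34, 16.7, 12.3 and 91.6 CPM. The groups did not overlap, and the ox-LDL libraries covered the widest range relative to their mean of the 10 genes (26.1 ± 37.0 CPM, n = 5). For Ccl22 the log2 fold change was 4.23 (SE 0.83, edgeR adjusted p = 0.00301), and 2.78 without ox-LDL replicate 5 (edgeR adjusted p = 0.00141). The call was lost without control replicate 1 (edgeR adjusted p just above 0.01) and without control replicate 4 (0.0108), with limma-voom (0.0202), with limma on log2(FPKM + 1) (0.0132) and without a filter on low counts (0.0277). Summed over 6 dendritic cell markers, the level was 1.33 to 2.78 CPM among controls and 1.87 to 4.71 CPM after ox-LDL, and 1 of them, Clec9a, rose (log2 fold change 2.33, edgeR adjusted p = 0.00283), a call lost without control replicate 1, 2 or 4. Another of them, Cd209a, was below the filter with means of 0.842 ± 0.704 CPM among controls and 0.0171 ± 0.0383 CPM after ox-LDL, and with all ox-LDL values under the controls. The part of such cells in the level of Ccl22 was not tested.

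**Figure D2:**
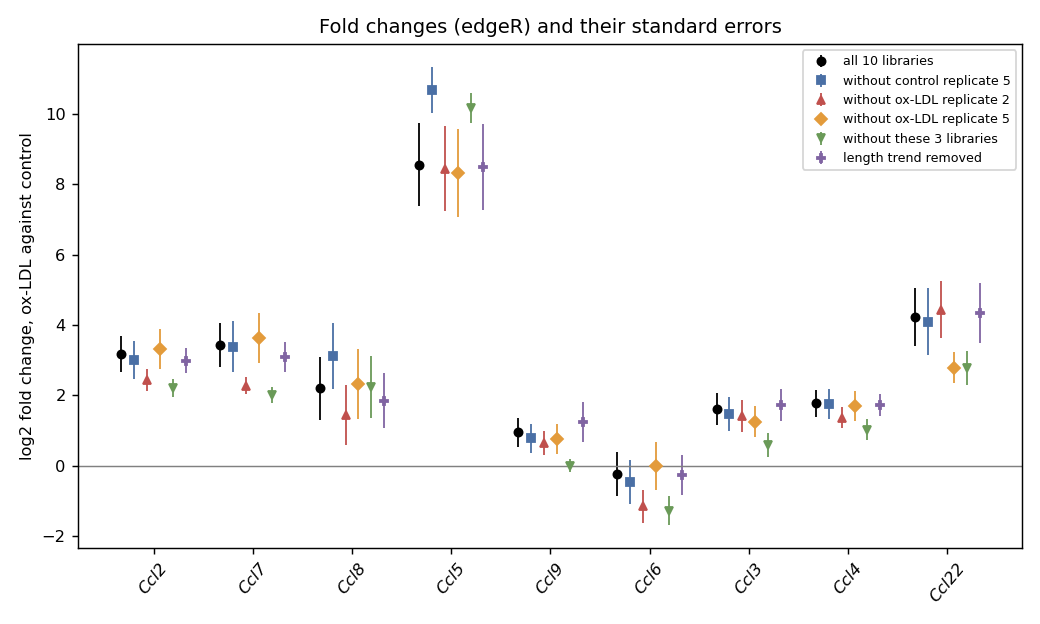
Log2 fold change, ox-LDL against control, with its standard error as a vertical line (edgeR), for the 9 CC ligand genes tested, with all 10 libraries, without single libraries, without 3 libraries together, and with the trend on gene length removed. Ccl5 stays above 8 throughout, Ccl2 and Ccl7 move down without ox-LDL replicate 2, Ccl22 moves down without ox-LDL replicate 5, and the estimates of Ccl6 lie at or below 0.

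The calls were then compared with and without the trend on gene length. With each library's trend on length removed, the same 5 genes were called, at log2 fold changes of 8.49 for Ccl5, 4.35 for Ccl22, 3.10 for Ccl7, 2.99 for Ccl2 and 1.74 for Ccl4. Ccl3 was at 1.73 (edgeR adjusted p = 0.0113), Ccl9 at 1.25, Ccl8 at 1.85 and Ccl6 at -0.25 under the same setting, and none of these passed. Without control replicate 5, ox-LDL replicate 2 and ox-LDL replicate 5 together, 4 genes were called, since Ccl4 was at 1.03 (edgeR adjusted p = 0.0173).

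Levels between genes were compared per length, as FPKM, the fragments scaled by gene length and library size. In control cells the order of mean level was Ccl6 (1980 ± 996 FPKM), Ccl9 (347 ± 92.9), Ccl3 (149 ± 52.6), Ccl2 (36.5 ± 14.6), Ccl4 (29.7 ± 9.04), Ccl5 (16.3 ± 28.7), Ccl7 (7.48 ± 1.35), Ccl8 (2.54 ± 3.02), Ccl22 (0.886 ± 0.272) and Ccl12 (0.172 ± 0.187), each as mean FPKM with SD over 5 libraries. 4 of the 9 neighbouring pairs kept this order in all 5 control libraries, Ccl6 over Ccl9, Ccl9 over Ccl3, Ccl3 over Ccl2 and Ccl22 over Ccl12. The place of Ccl5 above Ccl7 held in 1 of the 5 libraries, control replicate 5, and the other neighbours were not separated by the spread of the libraries.

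In ox-LDL cells the order was Ccl5 (4936 ± 1923 FPKM), Ccl6 (1323 ± 906), Ccl9 (545 ± 173), Ccl3 (382 ± 195), Ccl2 (255 ± 123), Ccl4 (87.3 ± 23.2), Ccl7 (56.8 ± 47.8), Ccl22 (13.8 ± 18.2), Ccl8 (8.93 ± 7.56) and Ccl12 (5.45 ± 4.18). 3 of the 9 neighbouring pairs kept the order in all 5 libraries, Ccl5 over Ccl6, Ccl9 over Ccl3 and Ccl2 over Ccl4. Ccl5 moved from the sixth to the first place, while Ccl6, Ccl9, Ccl3 and Ccl2 followed each other in the same sequence as in control cells.

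Summed over the 10 genes, CC ligand RNA was 2570 ± 1099 FPKM in control (1160 to 4008) and 7614 ± 2184 FPKM in ox-LDL libraries (5162 to 9869), without overlap. The absence of overlap depended on the scale. As TMM-scaled CPM, not divided by length, the sums were 1425 to 6168 in control and 3573 to 12967 in ox-LDL libraries, which overlapped. The shares below are of the summed FPKM. In control cells Ccl6 was 74.5% ± 7.48 of that sum, Ccl9 14.6% ± 3.79, Ccl3 6.21% ± 1.82 and Ccl5 1.27% ± 2.55 (SD, n = 5). In ox-LDL cells Ccl5 was 64.3% ± 11.3 (45.7% to 74.8%), Ccl6 17.5% ± 10.0, Ccl9 7.37% ± 1.82, Ccl3 5.07% ± 1.77 and Ccl2 3.53% ± 1.63. The leading gene of the family was therefore Ccl6 in all 5 control libraries and Ccl5 in all 5 ox-LDL libraries. Without Ccl5, Ccl6 and Ccl9, the other 7 genes summed to 158 to 307 FPKM in control and 551 to 1112 FPKM in ox-LDL libraries.

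**Figure D3:**
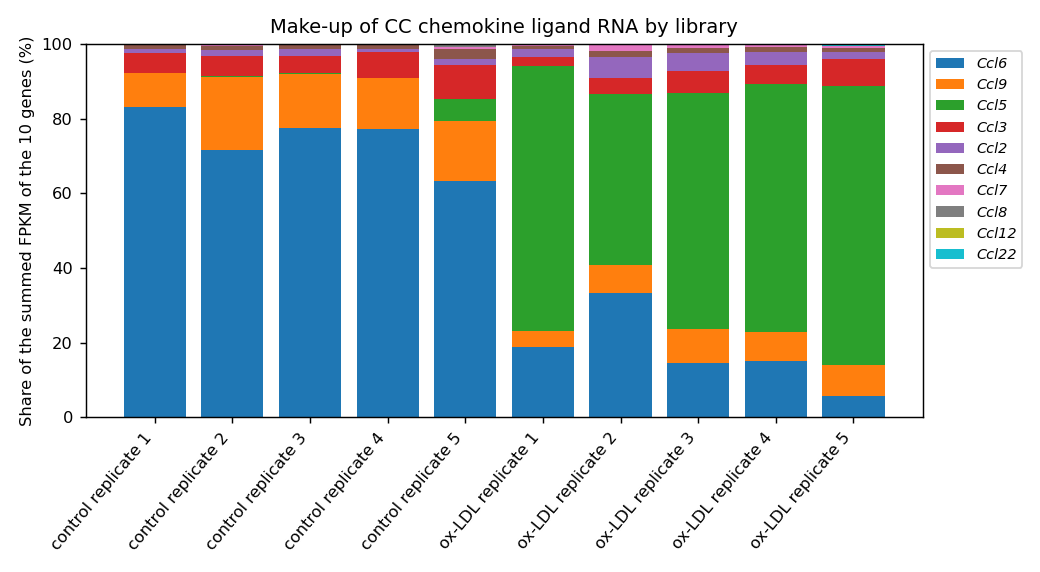
Share (percent) of each of the 10 genes in their summed FPKM, with 1 stacked bar per library starting at 0. Ccl6 fills 63.3% to 83.1% of the 5 control bars, and Ccl5 fills 45.7% to 74.8% of the 5 ox-LDL bars.

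Each gene's pattern over the 10 libraries was compared with all other genes tested, as the mean absolute distance of log2(CPM + 1) after centring each gene on its own mean. The nearest gene to Ccl5 was Acod1, the enzyme that makes itaconate in activated macrophages, at a distance of 0.63, and the nearest family gene, Ccl2, was at 3.20. Ccl2 was nearest to Bcl2a1a, an anti-apoptotic gene, at 0.27, with Ccl7 at 0.34. Ccl3 was nearest to its neighbour Ccl4, at 0.29, and Ccl4 to Clec4d, a C-type lectin receptor of myeloid cells, at 0.16. Ccl22 was nearest to Osm, the cytokine oncostatin M, at 0.34, and Osm had means of 1.98 CPM among controls and 24.3 CPM after ox-LDL. The other nearest genes were Ggct for Ccl7 (0.25), Ccl24 for Ccl8 (0.40), Psma4, a proteasome subunit, for Ccl9 (0.18), and H2az2, a histone variant, for Ccl6 (0.29). These distances describe libraries that share depth and scaling, and no test was made on them.

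The start regions were searched for 4 short motifs, from 250 bases before to 50 after the RefSeq start (GRCm38.p6), for the 6 genes with an entry, Ccl3, Ccl6, Ccl8, Ccl9, Ccl12 and Ccl22. The letters were TGANTCA for AP-1, GAAANNGAA for interferon regulatory factors, the NF-kB consensus by name, and TATAAA, on both strands except TATAAA, which was searched on the strand of the gene. Of 32851 promoters of this length, 7.81% held the AP-1, 8.56% the interferon regulatory factor, 4.51% the NF-kB and 8.32% the TATAAA letters. TATAAA stood 31 bases before the start in Ccl12, 32 in Ccl8 and 92 in Ccl9. Ccl9 also held the AP-1 letters and the NF-kB consensus, and Ccl3 the interferon regulatory factor letters on the opposite strand. None of the 4 was found in this window in Ccl6 or Ccl22. The 120 bases before the start are shown for the 3 genes with TATAAA, since these are a gene that was near 0 in control cells (Ccl12), a variable gene (Ccl8) and an abundant gene (Ccl9). Positions are those of the same bases on NCBIM37, and capitals mark the motif matches.
Ccl12 (chr11:81915227-81915346, plus strand): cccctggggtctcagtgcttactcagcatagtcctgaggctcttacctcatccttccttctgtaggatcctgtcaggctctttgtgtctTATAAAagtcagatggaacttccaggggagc
Ccl8 (chr11:81928567-81928686, plus strand): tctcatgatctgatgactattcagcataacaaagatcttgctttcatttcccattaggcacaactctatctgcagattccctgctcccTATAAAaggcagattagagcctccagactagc
Ccl9 (chr11:83392139-83392258, minus strand): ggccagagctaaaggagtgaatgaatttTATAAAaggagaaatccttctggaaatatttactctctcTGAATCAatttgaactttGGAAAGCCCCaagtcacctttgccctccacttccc
A match describes the letters in this window and is no measurement of binding.

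Of 11 other CC ligand genes, 8 had a row and 3 were tested. Ccl24, an attractant of eosinophils, rose from 0.510 ± 0.319 to 3.02 ± 1.96 CPM (log2 fold change 2.55, SE 0.55, edgeR adjusted p = 0.00473), and none fell. The call of Ccl24 was lost in 8 of the 22 alternatives that tested it, among them 6 of the 10 that left out 1 library (control replicates 1, 2, 3 and 5, ox-LDL replicates 1 and 5), with adjusted p of at most 0.0199 and log2 fold changes from 1.32 to 2.96. Ccl17, which shares the receptor Ccr4 with Ccl22, was below the filter, with 2, 0, 0, 0 and 2 counts in control replicates 1 to 5 and 11, 38, 8, 9 and 15 counts in ox-LDL replicates 1 to 5. Its groups did not overlap. The median log2 fold change of the 3 tested genes was 0.33.

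Among 9 genes listed as receptors of CC ligands, 4 were tested, 1 was higher and 1 was lower in ox-LDL cells. Ccr2, the receptor of Ccl2, Ccl7 and Ccl12, had 38, 91, 81, 69 and 134 counts in control replicates 1 to 5 and 6, 0, 1, 1 and 8 counts in ox-LDL replicates 1 to 5. All ox-LDL libraries were below all controls, and the log2 fold change was -4.41 (SE 0.63, edgeR adjusted p = 0.000399). Ccrl2, an atypical chemoattractant receptor, rose from 110 ± 32.5 to 685 ± 543 CPM (log2 fold change 2.64, SE 0.51, edgeR adjusted p = 0.00255). Ccr1, which binds Ccl3, Ccl5, Ccl6 and Ccl9, was at 195 ± 40.3 and 255 ± 94.1 CPM (edgeR adjusted p = 0.341). The receptors Ccr3, Ccr4, Ccr8, Ackr1 and Ackr2 were below the filter.

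**Figure D4:**
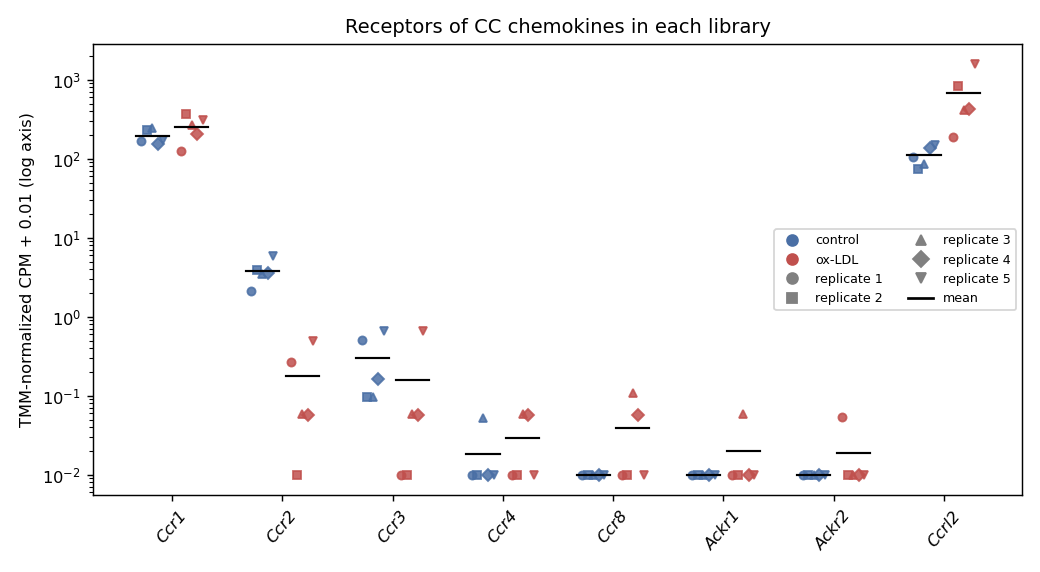
TMM-normalized CPM plus 0.01 (log axis) of 8 genes listed as receptors of CC ligands, among them the atypical receptor Ccrl2. Blue marks the 5 control and red the 5 ox-LDL libraries, with a bar at the group mean. Ccr2 is lower in every red point, Ccrl2 is higher in every red point, and the groups overlap for Ccr1.

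The genes around the family were described from lists. Of 13 genes of chemokine receptor signalling, none rose and 2 fell, Dock2, which drives Rac in migrating leukocytes (log2 fold change -1.99, edgeR adjusted p = 0.000449), and Rgs2, which ends G-protein signals (-3.78, edgeR adjusted p = 2.95e-05). Both were called under all 23 alternatives, while the count that rose was 1 with DESeq2 and 2 without ox-LDL replicate 2. Of 18 genes from Toll-like receptor 4 to NF-kB and AP-1, 5 rose, the co-receptor Cd14 (2.24), Irak2 (1.49), Traf6 (1.14), Ikbkg (1.44) and the inhibitor Nfkbia (3.20, edgeR adjusted p = 8.07e-05), and none fell. Cd14 and Nfkbia were called under all 23 alternatives, whereas Traf6 was lost in 15 and Ikbkg in 11. The count that rose was 2 by library size alone, 3 on FPKM, under the replicate block and without any 1 of control replicates 1 to 4 or ox-LDL replicates 3 to 5, and 8 without ox-LDL replicate 2. The count that fell was 2 with DESeq2, 2 without ox-LDL replicate 1 and 1 without ox-LDL replicate 2. Of 15 genes tested of the TRIF and interferon branch, 8 rose, among them Irf1 (4.70), Irf7 (4.54), Stat2 (2.10), Ifnar2 (1.58), Traf3 (1.54), Tbk1 (1.01) and Ticam2 (1.00), all as log2 fold changes, and none fell. The count was 5 by library size alone and on both FPKM scales, and Irf1, Irf7 and Stat2 were called under all 23 alternatives. Of 7 genes of chemokine mRNA decay and stability, the ribonuclease gene Zc3h12a rose (1.99, edgeR adjusted p = 0.00100), though not on the FPKM scales (limma adjusted p up to 0.0112), and 2 of the list rose without ox-LDL replicate 2, while Zfp36, which binds AU-rich elements of cytokine mRNA, was at 30.2 ± 13.1 and 92.8 ± 109 CPM (edgeR adjusted p = 0.0765). The medians of the 4 lists were -0.04, 0.39, 1.01 and 0.36 in this order, beside 0.10 over all genes tested.

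Markers of other cells that make CC ligands were low beside the macrophage markers. In the macrophage list 2 of 8 tested genes rose, Adgre1 (log2 fold change 2.07) and Cd14, and 6 of the 8 had a positive change. The means of Lyz2 and Itgam went down without passing the test. Lyz2 was at 27793 ± 12575 and 17453 ± 15269 CPM in control and ox-LDL libraries (edgeR adjusted p = 0.371). Itgam was at 304 ± 124 and 178 ± 72.8 CPM (edgeR adjusted p = 0.141). Summed levels in control and ox-LDL libraries were 17.5 to 37.0 and 20.3 to 156 CPM over 7 neutrophil markers. Of these S100a8 rose (2.76, edgeR adjusted p = 0.00310), with overlapping groups, while Mmp8 was at 18.1 ± 10.7 and 7.58 ± 3.02 CPM (edgeR adjusted p = 0.0670). The call of S100a8 was lost in 4 alternatives. They were the replicate block, no filter on low counts, without control replicate 2, and without control replicate 5, ox-LDL replicate 2 and ox-LDL replicate 5 together. They were 6.38 to 26.8 and 23.5 to 78.4 CPM over 8 mesothelial and stromal markers, of which Col1a1 (2.72) and Col1a2 (2.40) rose, while the mesothelial gene Upk3b was below the filter at 0.524 ± 0.253 and 0.0750 ± 0.0988 CPM, without overlap. The summed levels were 0.984 to 2.68 and 1.02 to 3.1 CPM over 6 B cell markers, 0.257 to 0.642 and 0 to 0.776 CPM over 6 T and NK cell markers, and 2.61 to 8.68 and 0.585 to 2.99 CPM over 6 eosinophil and mast cell markers, of which Siglecf fell (log2 fold change -3.32). Resident peritoneal macrophage markers summed to 5.04 to 11.8 and 4.36 to 10.8 CPM over 6 genes, of which Timd4 rose (log2 fold change 3.22). In the same list Icam2 was lower in all ox-LDL libraries without passing the threshold (-1.29, edgeR adjusted p = 0.0140), and Selp, below the filter, was at 1.03 ± 0.578 and 0.0821 ± 0.0661 CPM. None of the markers with a row was at 0 in all 10 libraries, and the means in control and ox-LDL libraries were 0.0695 and 0.0597 CPM for the neutrophil gene S100a9, 0.101 and 0.120 CPM for the mesothelial gene Msln, and 0 and 0.00870 CPM for the T cell gene Cd3e. The part of these cells in the levels of CC ligands was not tested.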

How the data were processed

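RNA of 5 control and 5 ox-LDL libraries was sequenced on a BGISEQ-500. The submitters' processing notes name FastQC, HISAT2 2.0.5, SAMtools 1.4, StringTie 1.3.3.13 and mm9. The counting step and its use of strand are not given in the sources used here. The authors deposited estimated counts per gene, of which 13.6% of values were not whole, and a value per library that behaves as FPKM (the gene length implied by counts and values had a median largest-to-smallest ratio of 1.029 over 3539 genes). The files do not name that unit. The 9788 circRNA rows (1.44% to 2.24% of counts) were left out. Of 23382 NCBI identifiers, 22818 had a symbol in the RefSeq gene table of GRCm38.p6, and that table was used for names alone. The promoter windows were taken separately from RefSeq starts on GRCm38.p6.

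Counts were rounded and tested with edgeR 4.0.16 in R 4.3.3 (quasi-likelihood, robust, TMM, filterByExpr by group), group as the only term, with Benjamini-Hochberg adjustment over 12654 genes and a threshold of 0.01. The biological coefficient of variation was 37.3%. Single genes were also compared by 2-sided exact permutation of log2(CPM + 1). Alternatives used DESeq2 1.42.0, limma 3.58.1, other normalizations and filters, FPKM, a gene length trend, a replicate block, and each library left out. The step was tested on simulated data.

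All 10 genes are named. Some items are not reported here. Of list genes, those past the threshold or defining a receptor are named, and for each gene tested the 1 with the nearest pattern. The exceptions are Ccl17, Zfp36, S100a9, Msln, Cd3e, Cd209a, Mmp8, Upk3b, Icam2, Selp, Lyz2, Itgam, Mertk and the 3 promoters shown, chosen after their values were seen. The genes and lists were chosen with earlier results of these data known. Intervals cover counting error only. The p-values set the difference between the groups against the spread between these libraries, and whether each library was a separate mouse is not stated.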

Additional observations from a re-analysis of the deposited data

Results flagged for a closer look

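The highest and lowest library was examined in 20 groups of 5 (10 genes in 2 groups). Of these, 5 stood apart by a gap above 0.71 of the whole range of their group (Dixon's test). Chance gives such a gap in about 5% of groups if values are normally distributed. The gaps were taken on CPM and not on its logarithm, and the groups share libraries, so this rate need not hold here. In ox-LDL replicate 2, Ccl2 was at 543 CPM (next 159), Ccl6 at 6058 CPM (next 1918) and Ccl7 at 163 CPM (next 33.0), with gaps of 0.884, 0.800 and 0.885 of the range. This library had the lowest TMM factor (0.593) and the strongest trend on gene length (rho -0.687), whose part in these values was not tested. It was the highest of its group for 7 of the 10 genes by CPM and for 4 by FPKM, which uses no TMM factor: Ccl2, Ccl4, Ccl6 and Ccl7 kept that place, and Ccl8, Ccl9 and Ccl12 did not.

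In control replicate 5, Ccl5 was at 23.9 CPM (next 1.80), a gap of 0.945 of the range. In the same library Ccl8 was at 2.56 CPM, above the other controls, and at 84.1% of the level in ox-LDL replicate 5, where Ccl5 was at 0.676% of it. In ox-LDL replicate 5, Ccl22 was at 91.6 CPM (next 16.7), a gap of 0.848 of the range.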

How the results depend on the processing

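With 5 genes called higher, alternatives called 4 to 6 apart from the replicate block, which called 3 (Ccl5, Ccl7 and Ccl2). These counts include Ccl12 where it was called, though the main test left it out. Without control replicate 4 the calls were Ccl2, Ccl5, Ccl7 and Ccl12, with Ccl4 and Ccl22 lost. Without a filter on low counts they were Ccl2, Ccl4, Ccl5 and Ccl12, with Ccl7 and Ccl22 lost. Without control replicate 1, 2, 3 or 5, Ccl12 was called and either Ccl4 or Ccl22 was lost. Leaving out single libraries gave 4 to 6 genes higher and 0 lower. Correlations of same-numbered deviations ran from -0.419 to 0.512, and 3 of 10 libraries correlated best with their own number. These deviations also followed gene length, so this comparison cannot tell whether the replicate numbers pair the samples. The main test has no block. Under the replicate block the adjusted p of Ccl4 was 0.0243 and that of Ccl22 0.0138 (edgeR). Ccl6, at -0.23, ran from -1.15 (without ox-LDL replicate 2) to 0.12 (without control replicate 1) as single libraries were left out. Ccl6 was at -1.27 (edgeR adjusted p = 0.0288) without the 3 libraries named below, and passed the threshold of 0.01 under none of the alternatives. Over 206 alternative values of single genes, 190 kept direction and side of the threshold, 14 lost the call and 1 gained it (Ccl3 with DESeq2). Removing control replicate 5, ox-LDL replicate 2 and ox-LDL replicate 5 together was chosen after seeing the data. Ccl8 and Ccl12 were not tested where 10 counts in every library were required.

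Over all genes, 1866 were called, against 3009 with DESeq2, 3257 without ox-LDL replicate 2, 3599 without the 3 libraries and 1243 by limma on log2(FPKM + 0.1). The share of higher genes among those called was 63.7%, against 42.5% on log2(FPKM + 1) and 43.7% on log2(FPKM + 0.1). The median of all genes moved from 0.10 to -0.05 with upper-quartile normalization, -0.09 by library size alone and -0.14 on log2(FPKM + 1). The order of levels per length was the same from TMM-scaled counts. Few counts limit Ccl12 and Ccl8 in control cells. Ccr2 was not tested on either FPKM scale or where 10 counts in every library were required, and was called in the other 20 alternatives.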

Other observations

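Ccl2 and Ccl7 are neighbours on chromosome 11 and share the receptor Ccr2. Within libraries their ratio was compared on the FPKM scale. The FPKM ratio of Ccl2 to Ccl7 was 5.95, 4.01, 5.85, 5.29 and 2.86 in control replicates 1 to 5 and 6.98, 3.30, 5.91, 5.75 and 4.41 in ox-LDL replicates 1 to 5. The ranges of the ratio overlapped, while both genes rose.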
